A study of Sus scrofa with 12 samples.

Results

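Transcripts of GPX1, of the peroxiredoxins PRDX1 to PRDX6 and of the superoxide dismutases SOD1 and SOD2 were followed between early and hatched pig blastocysts. The genes were chosen by symbol, with earlier results of these data known. Every probe annotated to 1 of these 9 genes was then taken, whatever its value. This gave 45 of 89014 probes, 15 of 43794 in the first array set and 30 of 45220 in the second. The first array set held probes of all 9 genes and the second of 6, as there no probe carried the symbol PRDX1, PRDX2 or PRDX3.

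Superoxide dismutases turn superoxide into hydrogen peroxide, SOD1 with copper and zinc mainly in the cytosol and SOD2 with manganese in mitochondria. Peroxiredoxins reduce hydrogen peroxide with a reactive cysteine, which the thioredoxin system restores in most members and glutathione in PRDX6, and GPX1 reduces it with a selenocysteine at the expense of glutathione. The members sit in different places: PRDX1 and PRDX2 mainly in the cytosol, PRDX3 in mitochondria, PRDX4 in the endoplasmic reticulum and PRDX5 in mitochondria, peroxisomes and cytosol. Preimplantation embryos are sensitive to oxygen in culture, and the balance of oxidants and antioxidants has long been studied in them.

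The study set in vivo pig (Sus scrofa) early blastocysts, collected 5 days post insemination, directly against hatched blastocysts, collected at 5.5 days, in 2 colours. Each of the 2 array sets held 6 arrays, of which 3 had the hatched stage in Cy5 and the early stage in Cy3 (hatched-Cy5 arrays 1 to 3) and 3 the reverse (early-Cy5 arrays 1 to 3). The numbers follow the order of deposition and pair no arrays. A PicoPure kit gave the RNA, T7 RNA polymerase amplified it in 2 rounds, and ULS chemistry attached the dyes. The labels give no breed, sire or number of embryos, and do not say which arrays share an RNA extract, so a p-value here covers only how far these arrays differ from each other, a spread that can be technical. Whole embryos were measured, so fewer cells of a type and less RNA per cell cannot be told apart.

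Every value below is a log2 ratio of the stages as deposited, and the stage in the numerator was not settled. Signed ratios are therefore called positive or negative only, and a fold is a difference between the stages with no statement of which was higher, and rests on the log2 base, which the labels do not state. A gene or probe was called where limma's adjusted p was under 0.05, and errors are the fit's standard errors (SE) over 6 arrays. Ratios carry no level, so genes were not ranked by abundance, dim probes could not be set apart and the embryo's marker genes could not be checked as present. Arrays of 1 set correlated between -0.084 and 0.73 over all probes on the first set and between -0.17 and 0.67 on the second. On each array set hatched-Cy5 array 1 and early-Cy5 array 1 shared a slide and the other 4 arrays shared another. Both array sets have this same layout, so a like result on both may not be independent.

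On the first array set 5 of the 9 genes were called, 4 on the positive side (GPX1, PRDX2, PRDX5 and SOD2) and 1 on the negative side (PRDX4). Over all 11913 genes of that set 4.75% were called, 2.38% positive and 2.38% negative. On the second array set 3 of 6 genes were called, GPX1 and PRDX5 on the positive side and PRDX4 on the negative side, where 11% of 4531 genes were called, 5.27% positive and 5.72% negative. The median ratio of the 9 genes was 0.34 on the first set and that of the 6 genes was 0.21 on the second, against medians over all genes of 0.0027 and 0.0050. Differences of at least 2-fold were found for GPX1 and PRDX4 on both array sets and for no other of the 9 genes, against 1.29% and 1.81% of all genes. As the genes were chosen with earlier results of these data known, the shares beside their counts are no test of the group.

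Among probes, 5 of 15 were called on the first array set (4 positive, 1 negative), where 4.64% of all probes were called, 2.16% positive and 2.48% negative. On the second array set 13 of 30 were called (9 positive, 4 negative), where 6.12% of all probes were called, 2.49% positive and 3.62% negative. Probes of 1 gene were read on the same arrays and are not replicates of each other. Whether they read the same transcripts was not tested. All 6 arrays lay on 1 side of 0 for 5 of the 15 probes on the first set and for 15 of the 30 on the second, against 7.92% and 9.95% of all probes. At least 2-fold ratios were held by 2 of 15 and 7 of 30 probes, against 1.84% and 2.09% of all probes.

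GPX1, the glutathione-dependent peroxidase of cytosol and mitochondria, had the largest ratio of the 9 genes on both array sets. Its single probe on the first set, 20892, stood at 2.66, 1.25 and 1.28 on hatched-Cy5 arrays 1 to 3 and at 2.13, 3.12 and 2.18 on early-Cy5 arrays 1 to 3. Every array lay on the positive side, hatched-Cy5 array 1 and early-Cy5 array 2 were the highest, and the ranges of the dye orientations overlapped. The mean was 2.10 ± 0.22 (SE, n = 6 arrays, limma adjusted p = 0.00401), a 4.30-fold difference and the 8th largest of 11913 genes. It was 2.40 over the 2 arrays that shared a slide and 1.96 over the other 4.

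The 6 GPX1 probes of the second array set averaged 1.86, 1.16 and 1.10 on hatched-Cy5 arrays 1 to 3 and 1.34, 1.95 and 1.11 on early-Cy5 arrays 1 to 3. Again all arrays were positive, and the same numbered arrays, hatched-Cy5 array 1 and early-Cy5 array 2, were the highest. The mean was 1.42 ± 0.14 (SE, n = 6, limma adjusted p = 0.00208), a 2.68-fold difference that ranked 24th of 4531 genes, with 1.60 on the slide of 2 arrays and 1.33 on the slide of 4. The difference between the array sets was not tested, since they were normalized separately. Of the second set's probes, 1 stood apart: 5 of the 6 probes were called, with ratios from 1.04 (probe 38622) to 1.92 (probe 39035), while probe 20976 had 0.14 ± 0.11 (limma adjusted p = 0.640). The called probes 4147, 12213, 26211 and 39035 each had their highest values, from 2.31 to 2.73, on hatched-Cy5 array 1 and early-Cy5 array 2, and lay between 1.23 and 2.12 on the other 4 arrays. Probe 20976 ran from -0.34 on hatched-Cy5 array 2 to 0.69 on early-Cy5 array 3, and all 6 carry the same RefSeq record of GPX1 in the annotation. Over both sets 6 of 7 GPX1 probes were called and all 7 had a positive ratio.

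PRDX4, the peroxiredoxin of the endoplasmic reticulum, which takes part in oxidative protein folding, was the member with the largest ratio on the negative side. Its probe on the first array set, 6186, read -0.98, -0.93 and -0.94 on hatched-Cy5 arrays 1 to 3 and -1.04, -1.47 and -1.26 on early-Cy5 arrays 1 to 3. All arrays were negative, and each early-Cy5 array was further from 0 than any hatched-Cy5 array. The mean was -1.10 ± 0.066 (SE, n = 6, limma adjusted p = 0.000778), a 2.15-fold difference, 105th by size of 11913 genes. The dye term of PRDX4 had a limma adjusted p of 0.239.

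On the second array set the mean of the 3 PRDX4 probes was -1.15, -0.87 and -0.99 on hatched-Cy5 arrays 1 to 3 and -0.95, -1.24 and -1.04 on early-Cy5 arrays 1 to 3. The dye orientations overlapped there and early-Cy5 array 2 was again the furthest from 0. The ratio was -1.04 ± 0.067 (SE, n = 6, limma adjusted p = 0.000423), a 2.06-fold difference ranking 70th of 4531 genes. Slide means were -1.05 and -1.03 on the second set and -1.01 and -1.15 on the first, for the slides of 2 and 4 arrays. Probes 8367, 12853 and 40122 were each called, at -1.17, -1.09 and -0.86, with arrays from -1.45 to -0.95, from -1.46 to -0.80 and from -1.10 to -0.65, so that all 4 PRDX4 probes of the study were called on the negative side.

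PRDX1, an abundant cytosolic peroxiredoxin, was measured by probe 38608 on the first array set only. It stood at 0.063, 1.84 and 0.90 on hatched-Cy5 arrays 1 to 3 and at 1.74, -0.28 and 0.35 on early-Cy5 arrays 1 to 3. Early-Cy5 array 1 and hatched-Cy5 array 2 were high, and hatched-Cy5 array 1 and early-Cy5 array 2, where GPX1 was highest, were the lowest. The ratio of 0.77 ± 0.30 (SE, n = 6, limma adjusted p = 0.242) was larger than those of PRDX2, PRDX5 and SOD2 but was not called. The SD over arrays was 0.883, against a median of 0.210 over all genes of that set.

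PRDX2, the other mainly cytosolic member, is known for its abundance in red blood cells. Its 2 probes on the first array set averaged 0.79, 0.25 and 0.15 on hatched-Cy5 arrays 1 to 3 and 0.53, 0.86 and 0.69 on early-Cy5 arrays 1 to 3. All arrays were positive, and hatched-Cy5 array 1 and early-Cy5 array 2 were the highest, as for GPX1. The mean of 0.54 ± 0.095 (SE, n = 6, limma adjusted p = 0.0227) was a 1.46-fold difference, with 0.66 on the slide of 2 arrays and 0.48 on the slide of 4. Probe 21978 carried most of it at 0.88 ± 0.15 (limma adjusted p = 0.0171), with arrays from 0.30 to 1.51. Probe 3683 had 0.20 ± 0.070 and was not called (limma adjusted p = 0.200). The call on PRDX2 was lost without early-Cy5 array 2 (adjusted p = 0.0955), without early-Cy5 array 3 (0.0940) and with slide as a term (0.0606).

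Of 9 red blood cell markers measured on the first array set, 0 were called by limma and 1 had an unadjusted p under 0.05. Their mean ratio per array ran from -0.27 to 0.22. Of 3 measured on the second set, 0 were called and 0 had an unadjusted p under 0.05, with array means from -0.24 to 1.38. A ratio above 0 was held by 5 of the 9 markers on the first set and by 2 of the 3 on the second. The embryonic globin HBE1 had 0.54 ± 0.35 (limma adjusted p = 0.522) and 1.34 ± 0.66 (limma adjusted p = 0.277) on the respective sets. KLF1, the marker with the unadjusted p under 0.05, had -0.47 ± 0.13 (limma adjusted p = 0.0946) on the first set. On the second set KLF1 had -0.034 ± 0.071. The part of red blood cells in the PRDX2 ratio was not tested.

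PRDX3, the mitochondrial peroxiredoxin, had 2 probes on the first array set with ratios near 0. Probe 17207 had 0.15 ± 0.096 and ran from -0.22 to 0.44 over the arrays, and probe 41372 had -0.026 ± 0.10 and ran from -0.29 to 0.34. Neither probe lay on 1 side on all arrays. The gene's ratio was 0.062 ± 0.056 (SE, n = 6, limma adjusted p = 0.662), which does not show that its transcript was equal in both stages.

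PRDX5, found in mitochondria, peroxisomes and cytosol, lay on the positive side on every array of both sets once its probes were averaged. The 3 probes of the first set averaged 0.34, 0.21 and 0.38 on hatched-Cy5 arrays 1 to 3 and 0.35, 0.36 and 0.43 on early-Cy5 arrays 1 to 3, a mean of 0.34 ± 0.051 (SE, n = 6, limma adjusted p = 0.0133). This narrow spread, an SD of 0.0728, hides probes that moved apart: probe 22240 read -0.57 and probe 40369 read 1.42 on hatched-Cy5 array 3. Probe 40369 alone was called, at 0.62 ± 0.14 with a limma adjusted p of 0.0499, while probes 22240 and 10419 had 0.22 and 0.19. The call on probe 40369 held only without hatched-Cy5 array 2 and was lost when any other array was left out (adjusted p up to 0.187, without early-Cy5 array 3). Probe 40369 is annotated to the RefSeq record of PRDX5 and the other pair to the symbol alone.

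On the second array set the 2 PRDX5 probes averaged 0.50, 0.50 and 0.73 on hatched-Cy5 arrays 1 to 3 and 0.62, 0.65 and 0.60 on early-Cy5 arrays 1 to 3. The arrays differed little and the dye orientations overlapped. The mean was 0.60 ± 0.058 (SE, n = 6, limma adjusted p = 0.00204), a 1.52-fold difference, and both probes were called, 12318 at 0.68 (arrays from 0.40 to 0.93) and 37409 at 0.52 (arrays from 0.34 to 0.70). Slide means were 0.56 and 0.62, and on the first set 0.34 and 0.34. The PRDX5 call on the first set was lost in 4 of 6 fits that left out 1 array: hatched-Cy5 array 1 (adjusted p = 0.0566), early-Cy5 array 2 (0.0648), early-Cy5 array 3 (0.0658) and hatched-Cy5 array 3 (0.0545). It was also lost with slide as a term (0.0538) and on the slide of 4 arrays alone (0.0929).

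PRDX6, which uses a single catalytic cysteine and also has phospholipase activity, was not called on either array set. The gene's ratio was -0.093 ± 0.088 (SE, n = 6, limma adjusted p = 0.678) over 3 probes on the first set and 0.29 ± 0.089 (limma adjusted p = 0.0879) over 7 on the second. Its probes fell into unlike patterns: 6 of 10 had a positive and 4 a negative ratio. Probe 2802 of the second set was the only one called, with 0.91, 0.60 and 2.13 on hatched-Cy5 arrays 1 to 3 and 0.51, 0.34 and 1.40 on early-Cy5 arrays 1 to 3, a mean of 0.98 ± 0.21 (SE, n = 6, limma adjusted p = 0.0348). The call held in 1 of 6 fits that left out 1 array, that without hatched-Cy5 array 2, and was lost without any other array (adjusted p up to 0.122, without early-Cy5 array 3).

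Hatched-Cy5 array 3 and early-Cy5 array 3 were the highest for that probe, and they were also the highest for probes 25717 (mean 0.60) and 17174 (mean 0.51), which were not called. The other 4 PRDX6 probes of the second set had means from -0.13 to 0.084. In the annotation probe 2802 carries a predicted RefSeq record of its own and the other 6 share the curated record of PRDX6. The files do not show whether these probes read different transcripts. The 3 PRDX6 probes of the first set had means from -0.36 (probe 31123) to 0.086 (probe 42361).

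SOD1, the copper and zinc dismutase, had a negative ratio on all 6 of its probes, of which 1 was called. On the first array set probe 38625 read -0.49, 0.069 and -0.29 on hatched-Cy5 arrays 1 to 3 and -0.29, -0.87 and -0.63 on early-Cy5 arrays 1 to 3. All arrays but hatched-Cy5 array 2 were negative, and the ratio of -0.42 ± 0.099 (SE, n = 6, limma adjusted p = 0.0672) was not called. It was called without hatched-Cy5 array 2 (-0.49, adjusted p = 0.0432), without early-Cy5 array 1 (-0.49, 0.0441) and with adjoining arrays as a random block (0.0247), where the block correlation was estimated below 0, at -0.217. With residual pairs as the block (correlation 0.424) the adjusted p was 0.0822, with slide as a term 0.185 and with those pairs averaged 0.358.

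The 5 SOD1 probes of the second array set averaged 0.016, -0.28 and -0.43 on hatched-Cy5 arrays 1 to 3 and -0.39, -0.16 and -0.39 on early-Cy5 arrays 1 to 3. Here hatched-Cy5 array 1 was the 1 array above 0, and the mean was -0.27 ± 0.076 (SE, n = 6, limma adjusted p = 0.0647). With adjoining arrays as a random block it was called (0.0483, block correlation -0.105), but with residual pairs as the block (correlation 0.510) the adjusted p was 0.128, with slide as a term 0.164 and with those pairs averaged 0.273. Probe 26946 was called at -0.49 ± 0.098 (limma adjusted p = 0.0257) and lay on the negative side on all arrays, from -0.84 to -0.22. That call was lost without hatched-Cy5 array 1 (adjusted p = 0.105), hatched-Cy5 array 3 or early-Cy5 array 2. The 3 probes annotated to another SOD1 complementary DNA record had ratios from -0.32 to -0.21, and all 3 were above 0 on hatched-Cy5 array 1 and early-Cy5 array 2.

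SOD2, the mitochondrial manganese dismutase, was called on the first array set only, and whether the sets differ was not tested. Probe 12828 read 0.32, 0.54 and 0.38 on hatched-Cy5 arrays 1 to 3 and 0.78, 0.48 and 0.17 on early-Cy5 arrays 1 to 3, all on the positive side. The mean was 0.44 ± 0.083 (SE, n = 6, limma adjusted p = 0.0292), a 1.36-fold difference, with 0.55 on the slide of 2 arrays and 0.39 on the slide of 4. That call was lost in 4 of 6 fits without 1 array: hatched-Cy5 array 1 (adjusted p = 0.0822), early-Cy5 array 2 (0.110), hatched-Cy5 array 2 (0.0675) and hatched-Cy5 array 3 (0.0924). Slide as a term (0.0748), the slide of 4 arrays alone (0.102) and residual pairs as a random block (0.0548) also ended it.

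The 7 SOD2 probes of the second set averaged 0.050, 0.37 and -0.0078 on hatched-Cy5 arrays 1 to 3 and 0.31, 0.048 and -0.039 on early-Cy5 arrays 1 to 3, a mean of 0.12 ± 0.078 (SE, n = 6, limma adjusted p = 0.419). That mean joins probes with opposite signs, 4 positive and 3 negative. Probe 28277 was called at 0.40 (limma adjusted p = 0.0496), a call that held only without early-Cy5 array 3 and was lost when any other array was left out (adjusted p up to 0.179, without hatched-Cy5 array 1). Probes 19562 and 10228 had 0.42 and 0.39 without a call. Probe 24941 had -0.14, with -0.77 and -0.88 on hatched-Cy5 array 1 and early-Cy5 array 2, the arrays on which probe 19562 was highest at 0.72 and 0.76. Probe 44411, the only one with a record of its own, lay at -0.21 and was negative on all 6 arrays but not called (limma adjusted p = 0.169).

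Arrays of opposite dye orientation were matched into pairs by the highest summed correlation of residuals, which gives pairs in any data. The residuals were those of all probes after stage and dye effects were taken out. Hatched-Cy5 array 1 was matched with early-Cy5 array 2, hatched-Cy5 array 2 with early-Cy5 array 1, and hatched-Cy5 array 3 with early-Cy5 array 3, on both sets. Before those effects were taken out, hatched-Cy5 array 3 correlated with hatched-Cy5 array 1 at 0.57 and 0.63 on the respective sets. With early-Cy5 array 3 it correlated at 0.38 and 0.45. The correlations of these residual pairs were 0.64, 0.72 and 0.37 on the first set and 0.54, 0.70 and 0.47 on the second. GPX1 averaged 2.89, 1.69 and 1.73 over these pairs on the first set and 1.91, 1.25 and 1.11 on the second, so that the pair with hatched-Cy5 array 1 was the highest. PRDX1 averaged -0.11, 1.79 and 0.62, with the same pair the lowest. Whether a pair holds the same RNA with dyes swapped cannot be told from the labels.

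If each pair is taken as 1 sample, 3 samples remain on each set. None of the 9 genes was then called by limma on the first set (0 of 9, with 6 at an unadjusted p under 0.05) and none of the 6 on the second (0 of 6, with 5 at an unadjusted p under 0.05). Over all genes 0 of 11913 and 4 of 4531 were called. The adjusted p became 0.107 and 0.0636 for GPX1, 0.0752 and 0.0513 for PRDX4 and 0.185 and 0.0629 for PRDX5 on the first and second sets, and 0.195 for PRDX2 and 0.214 for SOD2 on the first. With the pairs as a random block GPX1, PRDX4 and PRDX5 were called on both sets and PRDX2 on the first.

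The genes with 6 ratios most like those of GPX1 were named by the smallest root mean square difference over the 6 arrays. On the first array set these were CDA (0.410), APOA1 (0.413) and NPC1 (0.419), and on the second GULO (0.257), PAQR8 (0.275) and APOA1 (0.312). APOA1, an apolipoprotein of HDL particles, was named on both sets, at ratios of 2.32 and 1.54. For PRDX4 they were TRDMT1 (0.139), SCIN (0.218) and NCAM1 (0.220) on the first set and PDXK (0.123), PGRMC1 (0.150) and SLC15A1 (0.154) on the second. Being chosen for likeness, these genes carry no test here.

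Other peroxidases, catalase and CCS, the copper chaperone of SOD1, were read beside the members. The shares called among all genes were 4.75% (first set) and 11% (second set), and a list of 7 genes is too short to be set against them. Of 7 such genes measured on each array set, 0 were called on the positive side and 1, GPX6, was negative on both. GPX6, a glutathione peroxidase, had -0.57 ± 0.072 (SE, n = 6, limma adjusted p = 0.00788) and -0.56 ± 0.093 (limma adjusted p = 0.0108), but on each set 1 of its 2 probes carried the ratio, at -1.18 beside 0.033 and at -1.07 beside -0.037. Catalase (CAT), which breaks down hydrogen peroxide in peroxisomes, had 0.12 ± 0.064 and 0.095 ± 0.17, and the lipid hydroperoxidase GPX4 had 0.066 ± 0.060 on the second set. None of these 3 values was called.

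A list joined the thioredoxin system, which feeds electrons to most peroxiredoxins, with glutaredoxins. It had 16 genes measured on the first array set, and the second measured 6. Of the 16, 0 were called positive and 1 negative, GLRX5, a mitochondrial glutaredoxin for iron-sulfur clusters, at -1.17 ± 0.19 (SE, n = 6, limma adjusted p = 0.0184). On the second set 1 was called positive, the mitochondrial thioredoxin reductase TXNRD2 at 1.09 ± 0.21 (limma adjusted p = 0.0180), and 1 negative, GLRX at -1.26 ± 0.20 (limma adjusted p = 0.00911). Without 1 array GLRX5 was called in 2 of 6 fits, TXNRD2 in 4 and GLRX in 6. TXNRD2 had 0.26 ± 0.16 and GLRX -1.06 ± 0.34 on the first set, neither called. TXN, the thioredoxin that reduces cytosolic peroxiredoxins, had 0.26 ± 0.10 and -0.10 ± 0.26, and its reductase TXNRD1 had 0.079 ± 0.051 and -0.070 ± 0.067, with no call.

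Glutathione, the reductant of GPX1, gave 0 calls by limma among 15 genes of synthesis and use on the first array set, where 5 had an unadjusted p under 0.05. Among 10 genes on the second set 2 were called positive, the microsomal glutathione transferases MGST3 at 0.69 ± 0.079 (SE, n = 6, limma adjusted p = 0.00282) and MGST1 at 0.31 ± 0.058 (limma adjusted p = 0.0152). One was called negative there, CTH, which makes cysteine from cystathionine, at -1.35 ± 0.25 (limma adjusted p = 0.0160). Without 1 array MGST3 was called in 6 of 6 fits, MGST1 in 4 and CTH in 3. MGST3 had 0.23 ± 0.15 and CTH -0.52 ± 0.17 on the first set, uncalled. GSR, which returns oxidized glutathione to its reduced form, had -0.091 ± 0.11 and -0.037 ± 0.10.

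Markers of other cells that flushed embryos could carry, and of the blastocyst, were read on the same scale. Of 13 leukocyte markers measured on each set, 0 were called by limma on the first (1 at an unadjusted p under 0.05) and 1 on the second, FCER1G at 0.75 ± 0.087 (SE, n = 6, limma adjusted p = 0.00297), which had -0.20 ± 0.057 on the first. Their mean per array ran from -0.052 to -0.0033 and from -0.080 to 0.15. Of the cumulus, oviduct and uterus markers 0 of 12 were called on the first set (2 at an unadjusted p under 0.05) and 1 of 9 on the second, AMH at 0.35 ± 0.077 (limma adjusted p = 0.0293), with array means from 0.016 to 0.17 and from -0.043 to 0.13. Without 1 array AMH was called in 2 of 6 fits and FCER1G in 6. The part of such cells in the ratios of the peroxide and superoxide enzymes was not tested.

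Of 11 blastocyst markers 3 were called on the first set, all positive, and of 12 on the second 5, 4 positive and 1 negative. Over all genes 4.75% and 11% were called on the respective sets. GATA2, a trophectoderm transcription factor, had 1.06 ± 0.15 and 1.30 ± 0.20, and the trophectoderm keratin KRT8 had 0.76 ± 0.14 and 0.72 ± 0.16, called on both sets. KRT8 kept its call in 2 of 6 fits without 1 array on each set (adjusted p up to 0.0867 and 0.0760), and GATA2 in 2 of 6 on the first set (up to 0.0606) and 6 of 6 on the second. DPPA5 at 0.89 ± 0.096 and LIN28A at 0.36 ± 0.076, both known from pluripotent cells, were called on the second set, in 6 and 2 of those 6 fits. GATA6, a factor of the primitive endoderm, had -0.72 ± 0.15 on the second set, called there and in 3 of 6 such fits, and -0.061 ± 0.13 on the first. The mean of these markers per array ran from 0.15 to 0.47 on the first set and from 0.14 to 0.41 on the second. That mean does not describe each marker: 9 of 11 and 9 of 12 had a ratio above 0. Uncalled on the first set beside GATA6 were CDX2 at 0.26 ± 0.065, GATA3 at 0.039 ± 0.11 and TEAD4 at -0.034 ± 0.090. POU5F1 at 0.34 ± 0.084, SOX2 at 0.055 ± 0.076, DPPA5 at 0.20 ± 0.27 and LIN28A at 0.19 ± 0.090 were also uncalled there. The part of these markers in the ratios of the peroxide and superoxide enzymes was not tested.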

How the data were processed

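What the authors did to make the deposited values is not given in the sources used here: each file holds, for every probe on every array, a ratio between channels, taken as log2 from its range, with the base carried over from the second set, whose values pass 12 in size. That speaks only to log10, and a natural log was not tested. Background correction, normalization and direction are likewise not given. No channel intensities were used. The deposited values were taken as already turned to 1 direction, because over 3817 genes on both array sets the part shared by all arrays correlated at 0.489 between the sets and the part that follows the dyes at 0.179.

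Names of probes are those of the platform annotation in GEO, updated through RefSeq names (Sscrofa11.1): 18121 of 43794 and 10290 of 45220 probes had 1 symbol, 0 had several, and 25673 and 34930 were unnamed. By accession 2658 and 6055 were named and by synonym 241 and 70, and 15222 and 4165 symbols were kept. No build is named for the arrays, so no coordinates are given. Probes of 1 symbol were averaged per array. The array sets were fitted separately (lmFit and eBayes of limma 3.58.1, R 4.3.3) with terms for stage and dye orientation, 2-sided, with Benjamini-Hochberg adjustment over all genes or all probes of that set and a threshold of 0.05. The fit was tested on simulated data with noise independent between arrays, so that test does not cover arrays that share an RNA extract.

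The named genes are all members, up to 5 called genes per other list by smallest p, and the 3 genes most like GPX1 and PRDX4. Uncalled genes of those lists, such as CAT, GPX4, TXN, TXNRD1, GSR and HBE1, were named for their role after their values were seen. KLF1 was named for its unadjusted p. All uncalled blastocyst markers of the first set were named. Members, lists and rules were chosen with earlier results of these data known. Alternatives covered the dye term, sign, centring, scaling, slide, blocks, pairs, left-out arrays, the prior, the threshold, probe summary and naming.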

Additional observations from a re-analysis of the deposited data

Results flagged for a closer look

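Probe 3683 of PRDX2 on the first array set stood at -0.079 on hatched-Cy5 array 3, apart from 0.19 to 0.32 on the other 5 arrays. The gap to the nearest array was 0.677 of the whole range, above Dixon's critical value for 6 samples. It was the single such case among 55 sets of 6 values checked, and chance alone marks about 5% of them. The probe was not called, and the cause was not tested.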

How the results depend on the processing

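With the early-Cy5 arrays turned in sign, 0 of the 9 genes, 0 of 15 probes, 0 of 6 genes and 0 of 30 probes were called on the first and second sets (unadjusted p under 0.05 for 0, 1, 0 and 1), and the stage effect becomes the dye effect by construction. Over all features 118 of 11913 genes and 1327 of 43794 probes were called that way on the first set. On the second set 0 of 4531 genes and 3 of 45220 probes were. Ratios called in the main fit then changed sign without a call. On the first set GPX1 (also probe 20892) had -0.37, PRDX2 -0.15 (probe 21978 -0.24), PRDX4 and probe 6186 0.15, PRDX5 -0.034, SOD2 and probe 12828 -0.031, CDA -0.28, APOA1 -0.067, NPC1 -0.061, TRDMT1 0.17, SCIN 0.038, NCAM1 0.13, PGRMC1 0.12, GATA2 -0.095, NNT 0.12 and GLRX5 0.11. On the second set GPX1 had -0.048 (probes 4147, 26211 and 39035 -0.023, -0.063 and -0.10), PRDX4 0.038 (probes 8367, 12853 and 40122 0.016, 0.069 and 0.029), PRDX5 -0.022 (probe 12318 -0.055), TRDMT1 0.097, PAQR8 -0.024, PGRMC1 0.094, GATA2 -0.13, GATA6 0.0038, MGST3 -0.12, CTH 0.22, MT1A -0.11, HMOX1 0.014, SELENOK 0.13, MSRB1 -0.095, GPX6 0.031, GLRX 0.036 and AMH -0.16. No called ratio changed sign under any other alternative run. With residual pairs averaged, which leaves 3 samples, the 4 counts were also 0 (6, 7, 5 and 17 at an unadjusted p under 0.05). Over all features 0 of 11913 genes, 1 of 43794 probes, 4 of 4531 genes and 41 of 45220 probes were called with the pairs averaged. On the first set the counts of 5 genes and 5 probes became 2 and 2 with slide as a term, 3 and 3 on the slide of 4 arrays, which uses fewer samples, and 2 and 2 at a threshold of 0.01. Calls over all 11913 genes fell from 566 to 249, 243 and 162 in these settings, in the same order. Calls over all 43794 probes fell from 2032 to 866, 1218 and 589. Leaving out 1 array gave 2 to 6 genes and 2 to 5 probes on the first set, lowest without early-Cy5 array 2, and 3 to 3 genes and 10 to 13 probes on the second. Without early-Cy5 array 2, 197 of all 11913 genes and 679 of all 43794 probes were called on the first set. GPX1 and PRDX4 on both sets and PRDX5 on the second were called in all 6 fits that left out 1 array (adjusted p up to 0.0230, 0.0113, 0.00862, 0.00471 and 0.0126). The remaining alternatives kept the counts within 1.5 times. The labels pair no arrays, so the pairs used came from the residuals or from adjoining positions. The unstated ratio direction, log base and normalization, the possible sharing of RNA extracts, and 6 arrays per set limit all values. Without intensities, signal over background could not be judged, so a small ratio of a dim probe cannot be told from an equal level.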

Other observations

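Genes of oxidant-induced defence and of reductant supply, measured beside the peroxide and superoxide enzymes, are given with their counts on each array set. Over all genes 4.75% were called on the first set and 11% on the second, the sets measured different genes of each list, and the difference between the sets was not tested. A further list joined genes of the NRF2 pathway, the main transcriptional response to oxidants, with other genes of inducible defence. Of its genes 0 of 17 were called by limma on the first set (4 at an unadjusted p under 0.05). On the second set 3 of 11 were called positive and 2 negative. These counts are of the whole list and not of the NRF2 pathway alone. MT1A, a metal-binding metallothionein, had 1.11 ± 0.13 (SE, n = 6, limma adjusted p = 0.00292), the mitochondrial carrier UCP2 had 0.56 ± 0.12 and PARK7, a protein that senses oxidants, 0.49 ± 0.087. HMOX1, the inducible heme oxygenase, had -0.70 ± 0.14 (limma adjusted p = 0.0188) and OXSR1, a stress-responsive kinase, -0.24 ± 0.061 (limma adjusted p = 0.04998). Of 6 fits that each left out 1 array, MT1A was called in 6, PARK7 in 4, UCP2 and HMOX1 in 2 each (adjusted p up to 0.101 and 0.0763) and OXSR1 in 0 (adjusted p from 0.0734 to 0.155).

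A list of selenoprotein genes and of the machinery that makes selenoproteins gave 0 calls by limma of 12 on the first set (5 at an unadjusted p under 0.05). It left aside GPX1, the other glutathione peroxidases and the thioredoxin reductases, which were counted elsewhere, so its counts are not those of all selenoproteins. On the second set MSRB1, a methionine sulfoxide reductase, was called positive at 0.41 ± 0.099 and SELENOK, of the endoplasmic reticulum, negative at -0.55 ± 0.068, of 12. Without 1 array MSRB1 was called in 1 of 6 fits (adjusted p up to 0.128) and SELENOK in 6. The 6 SELENOK probes ran from -1.07 to 1.21, so the mean does not describe all of them.

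Another list joined genes that make NADPH with further genes of the pentose phosphate pathway. Of its genes 1 of 7 was called on the first set, the mitochondrial transhydrogenase NNT at -0.68 ± 0.099 (limma adjusted p = 0.0121). On the second set 2 of 4 were called, PGD at 0.70 ± 0.17 and TKT at 0.64 ± 0.070, both of the pentose phosphate pathway. Without 1 array NNT was called in 3 of 6 fits, PGD in 2 (adjusted p up to 0.131) and TKT in 6. PGD had 0.60 ± 0.22 on the first set, uncalled (limma adjusted p = 0.220). Of genes whose products make oxidants 0 of 10 and 0 of 6 were called by limma on the respective sets, with 1 on each at an unadjusted p under 0.05.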
